A study of Mus musculus with 16 samples.

Results

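The transcripts described here encode the proteins that build, sever, cap, anchor and contract actin filaments. The list held 40 genes, each matched by its symbol to 1 row of a count table with 46320 genes, and all 40 of the 40 passed the filter on low counts that left 19964 genes for testing. They comprised 9 subunits of the Arp2/3 complex, 8 proteins that bind actin monomers or sever filaments, 4 tropomyosins, 5 heavy and light chains of nonmuscle myosin II, 6 formins and Ena/VASP proteins, 3 capping protein subunits and 5 proteins that link filaments to the membrane. Actin filaments grow at their barbed ends from monomers carried by profilin. The Arp2/3 complex starts branches on existing filaments, formins and Ena/VASP proteins extend unbranched ones, cofilin severs them, and capping protein stops their growth. In growing axons this turnover drives the growth cone forward, while myosin II pulls on the filaments and the ERM proteins tie them to the plasma membrane.

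RNA had been isolated from motoneurons of embryonic day 13 mice, which were enriched from lumbar spinal cord by panning with an antibody against p75NTR and grown in microfluidic chambers, so that axons crossed channels into a compartment of their own. The 4 groups were the somatodendritic and the axonal side of +/+ motoneurons and of *Hnrnpr*-/- motoneurons, with 4 libraries each. The *Hnrnpr*-/- mice carry a CRISPR/Cas9 deletion of the first exons of the gene for the RNA-binding protein hnRNP R, in every cell and on a C57Bl/6 background, and +/+ mice are the wild type. CNTF was present on both sides of all chambers and BDNF only on the axonal side, and axonal cDNA was amplified with more PCR cycles than somatodendritic cDNA, so that compartment, BDNF and amplification cannot be told apart.

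Total counts ranged from 22024923 to 34864151 per library, and levels are given as CPM, counts scaled to a library total of 1000000 after adjustment by TMM factors. *Hnrnpr* itself was at 178 to 241 CPM in +/+ somatodendritic libraries, at 120.0 to 422 CPM in +/+ axons and at 0.545 to 1.16 CPM and 0.597 to 1.10 CPM in the *Hnrnpr*-/- libraries. Defining markers of motoneurons were low: *Mnx1* had no count outside 1 library, *Chat* did not exceed 1.31 CPM, and the summed level of 6 motoneuron markers was 13.05 to 29.7 CPM in the somatodendritic and 2.61 to 16.4 CPM in the axonal libraries. The sum of 6 astrocyte or radial glia markers was 903 to 2008 CPM in the somatodendritic and 1901 to 4703 CPM in the axonal libraries. The sum of 6 pericyte or smooth muscle markers, among them the smooth muscle actin *Acta2*, was 28.2 to 430 CPM in the somatodendritic libraries, 1255 to 11264 CPM in +/+ axons and 2126 to 10037 CPM in *Hnrnpr*-/- axons. In these bulk libraries, fewer cells of a type and less RNA per cell cannot be told apart.

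Between the compartments of +/+ motoneurons, 27 of the 40 transcripts were higher in axons, 4 were lower and 9 did not pass an adjusted p of 0.05 in edgeR's quasi-likelihood test. Of all genes tested, 30.1% were higher in axons and 27.4% were lower, against 67.5% and 10% of the 40. The median log2 fold change of the 40, axonal over somatodendritic, was 0.79, and that of all genes tested was 0.07. In *Hnrnpr*-/- motoneurons, 26 of the 40 were higher in axons and 3 were lower, where the shares among all genes tested were 27.5% and 26.8%, and the medians were 0.82 for the 40 and 0.00 for all genes. Library scaling by totals alone, without TMM factors, moved the median of all genes by 0.15 in +/+ and by 0.12 in *Hnrnpr*-/- motoneurons and gave 27 and 28 of the 40 as higher. This test does not pair the compartments. With a model term for the replicate number within each genotype (a block), 25 were higher and 4 lower in +/+ axons. In *Hnrnpr*-/- axons 26 were higher and 5 lower with this block. Of all genes, 11246 and 10857 were then called in either direction. Single log2 fold changes are given ± standard error of the fit to all 16 libraries. The +/+ and the *Hnrnpr*-/- comparison share no library. In both, 24 transcripts were higher in axons, and *Actr2*, *Evl* and *Ablim3* were lower. *Arpc5*, *Capza2* and *Rdx* were higher in +/+ motoneurons and missed the threshold in *Hnrnpr*-/- motoneurons, whereas *Tmsb10* and *Diaph1* did the reverse, and *Myh10* was lower in +/+ motoneurons and missed the threshold in the other genotype. With the block within each genotype, *Arpc5* and *Myh10* were called in both genotypes, and *Capza2* and *Tmsb10* in neither. No difference between the genotypes in the axonal enrichment passed the adjusted threshold, as given with the genotype comparison.

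**Figure D1:**
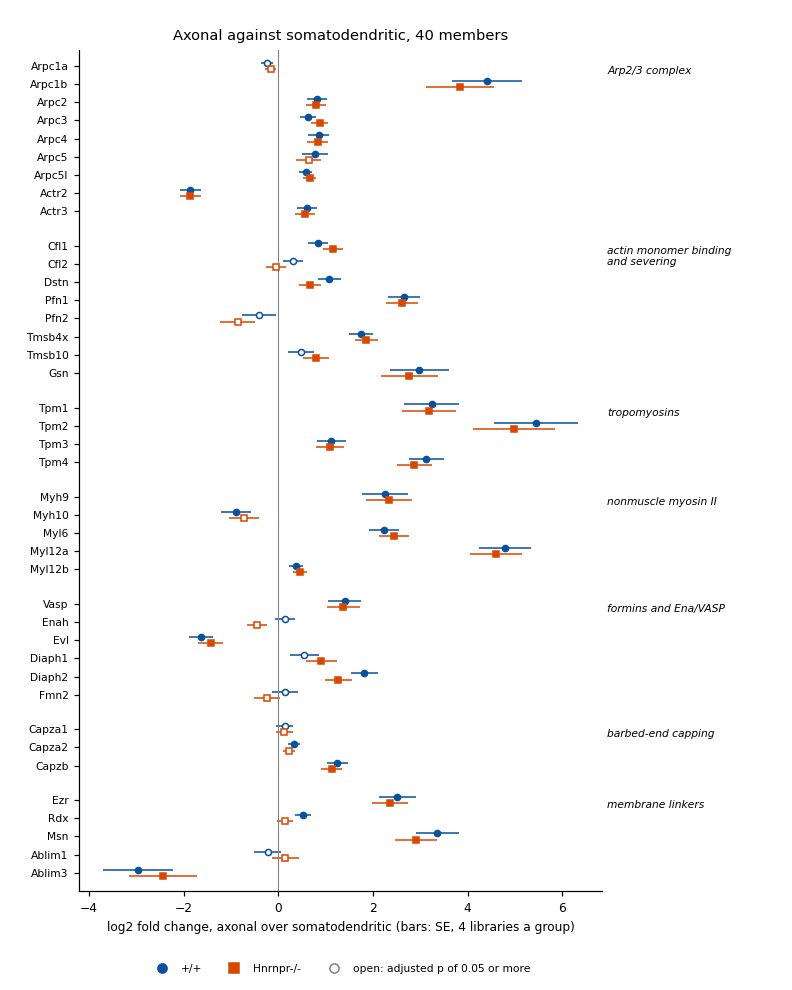
Log2 fold change of axonal over somatodendritic level (horizontal axis) for the 40 transcripts, grouped by class, in +/+ (circles) and *Hnrnpr*-/- (squares) motoneurons. Bars are standard errors of the fit to all 16 libraries, 4 a group, and open symbols did not pass the adjusted threshold. *Tpm2* at 5.45 and *Ablim3* at -2.97 in +/+ motoneurons mark the ends of the range.

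The Arp2/3 complex has 7 subunits, and the 9 genes include alternative versions of 2 of them, ARPC1 and ARPC5. In +/+ motoneurons 7 of the 9 transcripts were higher in axons, *Actr2* was lower and *Arpc1a* was not called. The *Hnrnpr*-/- comparison gave 6 that were higher and again only *Actr2* as lower. The 4 +/+ somatodendritic libraries held 13.3, 8.19, 15.5 and 5.77 CPM of *Arpc1b*, and the 4 +/+ axonal libraries 184, 64.7, 288 and 379 CPM. The matching values for *Hnrnpr*-/- motoneurons were 4.61, 9.27, 16.3 and 35.99 CPM and 183, 69.8, 226 and 477 CPM. *Arpc1b*, which encodes the ARPC1 version typical of motile blood and mesenchymal cells (chr5:145051066-145064996, plus strand), was above every somatodendritic library in every axonal one, 21.4-fold higher in +/+ axons (log2 fold change 4.42 ± 0.74, adjusted p = 0.00027) and 14.5-fold higher in *Hnrnpr*-/- axons (log2 fold change 3.85 ± 0.72, adjusted p = 0.00063). Its neighbour on the chromosome and alternative subunit, *Arpc1a* (chr5:145020679-145045566, plus strand), stayed within 127 to 149 CPM in +/+ axons and 157 to 164 CPM in the somatodendritic compartment, a log2 difference of -0.24 ± 0.12 with an adjusted p of 0.098. Without *Hnrnpr*-/- somatodendritic library 4, its highest there, the log2 fold change of *Arpc1b* in that genotype was 4.56 (adjusted p = 0.00061).

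*Actr2* encodes ARP2, 1 of the 2 actin-related proteins that form the start of the new branch (chr11:20012304-20062951, minus strand). *Actr2* was at 156, 185, 172 and 194 CPM in the somatodendritic libraries of +/+ motoneurons and at 35.9, 59.4, 35.7 and 63.3 CPM in their axons. They were, for *Hnrnpr*-/- motoneurons, 182, 162, 160.1 and 152 CPM in the somatodendritic compartment and 52.2, 42.98, 28.5 and 56.8 CPM in axons. All 8 axonal values lay below all 8 somatodendritic values, and the transcript was 3.64-fold lower in axons of both genotypes (log2 fold change -1.86 ± 0.23, adjusted p = 3.8e-05 in +/+ and adjusted p = 4.9e-05 in *Hnrnpr*-/- motoneurons). *Actr3*, which encodes the partner protein ARP3, had the opposite direction, with log2 fold changes of 0.60 ± 0.21 in +/+ and 0.57 ± 0.21 in *Hnrnpr*-/- motoneurons, and 19.5% of the 100-base windows of its transcript also occur in the transcripts of *Actr3-ps* or *Gm15899*. The 5 remaining called subunits moved less than *Arpc1b*. *Arpc2*, a core subunit that holds the complex on the mother filament, had a log2 fold change of 0.81 ± 0.21 in +/+ axons, *Arpc3* one of 0.62 ± 0.17, *Arpc4* one of 0.85 ± 0.22, *Arpc5* one of 0.77 ± 0.27 and *Arpc5l* one of 0.58 ± 0.14. In *Hnrnpr*-/- motoneurons *Arpc5* missed the threshold at 0.64 ± 0.27 (adjusted p = 0.06), and it passed with the replicate number as a block (adjusted p = 0.015) and with the block within each genotype (0.023). Per kilobase of the combined length of a gene's annotated exons, the scale used here to compare genes, *Actr2* fell from 47.97 ± 4.54 to 13.2 ± 4.03 CPM per kb (SD, n = 4), while *Arpc2* was at 124 ± 23.7 and 216 ± 52.2 and the sum of *Arpc1a* and *Arpc1b* at 108 ± 2.65 and 234 ± 86.9. *Actr2* was the lowest of the 9 on this scale in both axonal groups, where *Arpc2* was the highest.

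Of the 8 genes for monomer binding and severing, 5 were higher in +/+ axons and 6 in *Hnrnpr*-/- axons, and none was lower. *Pfn1* encodes profilin 1, which loads monomers with ATP and delivers them to growing barbed ends (chr11:70542670-70547625, minus strand). Its level was 79.3, 64.6, 75.3 and 85.99 CPM in +/+ somatodendritic libraries and 361, 308, 842 and 418 CPM in +/+ axons. Without hnRNP R the values were 52.8, 75.9, 78.4 and 79.9 CPM and 293, 300.2, 691 and 485 CPM, in the same order. The compartments did not overlap in either genotype, with a 6.32-fold higher level in +/+ axons (log2 fold change 2.66 ± 0.34, adjusted p = 4.2e-05) and a 6.16-fold higher level in *Hnrnpr*-/- axons (log2 fold change 2.62 ± 0.34, adjusted p = 6e-05). *Pfn2*, the profilin typical of neurons, was not called, at 611 to 861 CPM in the +/+ somatodendritic and 293 to 1185 CPM in the axonal libraries (log2 difference -0.41 ± 0.37, SE), and its log2 difference in *Hnrnpr*-/- motoneurons of -0.86 ± 0.37 had an adjusted p of 0.061. With the replicate number as a block, *Pfn2* was lower in *Hnrnpr*-/- axons (-0.89, adjusted p = 0.041, and -0.95, adjusted p = 0.035, with the block within each genotype).

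*Gsn* encodes gelsolin, a calcium-dependent severing and capping protein (chr2:35146371-35197914, plus strand). Libraries 1 to 4 of the +/+ somatodendritic compartment gave 35.03, 26.5, 54.3 and 31.6 CPM, and those of +/+ axons 268, 57.4, 238 and 597 CPM. For *Hnrnpr*-/- libraries, 28.8, 34.6, 58.3 and 56.8 CPM were found on the somatodendritic and 346, 84.7, 236 and 554 CPM on the axonal side. It was 7.87-fold higher in +/+ axons (log2 fold change 2.98 ± 0.62, adjusted p = 0.0011) and 6.84-fold higher in *Hnrnpr*-/- axons (log2 fold change 2.77 ± 0.61, adjusted p = 0.0018), and library 2 was the lowest axonal library in both genotypes. *Tmsb4x*, for the monomer-sequestering peptide thymosin beta 4, had log2 fold changes of 1.75 ± 0.25 and 1.86 ± 0.25 in +/+ and *Hnrnpr*-/- motoneurons. *Cfl1*, for the nonmuscle cofilin, had 0.84 ± 0.21 and 1.16 ± 0.21, and *Dstn*, for the related severing protein destrin, had 1.08 ± 0.24 and 0.67 ± 0.24. *Cfl2*, the cofilin best known from muscle, was not called in either genotype (0.31 ± 0.22 and -0.05 ± 0.22). *Tmsb10* missed the threshold in +/+ motoneurons (0.48 ± 0.28, adjusted p = 0.15) and passed it in *Hnrnpr*-/- motoneurons (0.80 ± 0.28, adjusted p = 0.023), though not with the block within each genotype (adjusted p = 0.069).

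Tropomyosins are coiled-coil proteins that lie along actin filaments and set which myosins and severing factors can reach them. All 4 tropomyosin transcripts were higher in axons in both genotypes. *Tpm2* (chr4:43513726-43523583, minus strand), which encodes a form abundant in muscle, had the largest increase among the 40. The 4 +/+ somatodendritic libraries held 1.93, 1.53, 10.2 and 4.08 CPM of *Tpm2*, and the 4 +/+ axonal libraries 132, 30.6, 328 and 283 CPM. The matching values for *Hnrnpr*-/- motoneurons were 1.81, 3.12, 8.08 and 8.02 CPM and 135, 46.1, 286 and 198 CPM. It was 43.6-fold higher in +/+ axons (log2 fold change 5.45 ± 0.89, adjusted p = 0.00021) and 31.6-fold higher in *Hnrnpr*-/- axons (log2 fold change 4.98 ± 0.87, adjusted p = 0.00039). Its axonal libraries spread widely, with library 2 lowest and library 3 highest in each genotype, but all lay above every somatodendritic library. Without +/+ somatodendritic library 3, the highest of its group, the +/+ log2 fold change was 6.31 (adjusted p = 0.00031).

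*Tpm1* (chr9:66929872-66956954, minus strand) encodes muscle and nonmuscle tropomyosins from alternative exons, which the counts by gene do not separate. *Tpm1* was at 75.7, 83.5, 168 and 104 CPM in the somatodendritic libraries of +/+ motoneurons and at 517, 353, 2002 and 1199 CPM in their axons. They were, for *Hnrnpr*-/- motoneurons, 80.2, 92.2, 149.8 and 105 CPM in the somatodendritic compartment and 459.5, 491, 2007 and 949.8 CPM in axons. The axonal level was 9.44-fold higher in +/+ (log2 fold change 3.24 ± 0.58, adjusted p = 0.00037) and 9.14-fold higher in *Hnrnpr*-/- motoneurons (log2 fold change 3.19 ± 0.57, adjusted p = 0.00048). *Tpm4* (chr8:72889132-72906986, plus strand) encodes a nonmuscle form found on stress fibres and at postsynaptic sites. It was at 76.5, 78.9, 129 and 89.8 CPM in +/+ somatodendritic libraries and at 603, 411, 995 and 1271 CPM in +/+ axons. The *Hnrnpr*-/- libraries held 80.9, 105, 139 and 121 CPM of *Tpm4* in the somatodendritic and 674, 457, 1169 and 961 CPM in the axonal compartment. Axons held a level that was 8.76-fold higher (log2 fold change 3.13 ± 0.37, adjusted p = 3e-05) and 7.31-fold higher (log2 fold change 2.87 ± 0.37, adjusted p = 5.9e-05) in +/+ and *Hnrnpr*-/- motoneurons. *Tpm3*, long known as a cytoskeletal tropomyosin of neurons, changed least of the 4, with log2 fold changes of 1.12 ± 0.30 and 1.09 ± 0.30, and 38.5% of its windows of 100 bases are shared with *Tpm3-rs7*. The summed level of the 4 tropomyosins was 83.7 ± 22.6 CPM per kb (SD, n = 4) in the +/+ somatodendritic compartment and 672 ± 356 in axons, and in *Hnrnpr*-/- motoneurons 94.7 ± 20.02 and 659 ± 317. In the same libraries 5 of the 6 pericyte or smooth muscle markers were higher in +/+ axons and 4 of 6 in *Hnrnpr*-/- axons, with library 3 highest in both genotypes for *Acta2*, *Tagln* and *Cnn1* but not for *Myh11*, *Pdgfrb* and *Rgs5*. Without both axonal libraries numbered 3, the log2 fold changes of *Tpm1* and *Tpm2* were 2.65 and 5.04 in +/+ and 2.58 and 4.61 in *Hnrnpr*-/- motoneurons, with adjusted p values of 0.00029, 0.00049, 0.00037 and 0.00083 in edgeR. The part that cells of this type had in the tropomyosin levels was not tested.

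**Figure D2:**
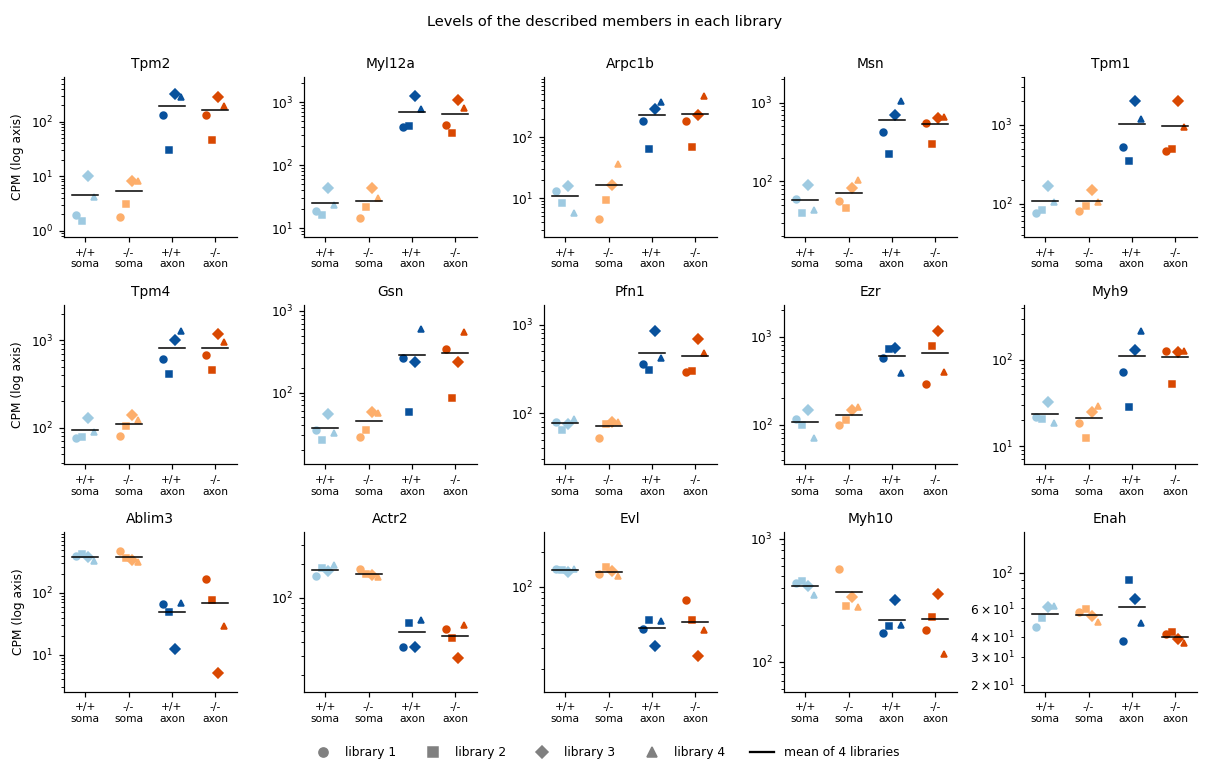
CPM on a log axis for 15 of the transcripts, in 16 libraries of 4 groups (somatodendritic is written soma, -/- is *Hnrnpr*-/-). Symbols mark the library number, black lines the mean of 4 libraries. *Tpm2* was 1.53 to 10.2 CPM in +/+ somatodendritic libraries and 30.6 to 328 CPM in +/+ axons, and *Ablim3*, *Actr2* and *Evl* ran the other way.

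Nonmuscle myosin II is a hexamer of heavy chains (*Myh9* and *Myh10* here), essential light chains (*Myl6*) and regulatory light chains (*Myl12a* and *Myl12b*), whose phosphorylation switches contraction on. In +/+ axons 4 of the 5 transcripts were higher and *Myh10* was lower, and in *Hnrnpr*-/- axons the same 4 were higher. *Myl12a* (chr17:71300788-71309528, minus strand) had the second largest increase of the 40. Its level was 18.6, 16.1, 44.02 and 23.5 CPM in +/+ somatodendritic libraries and 398, 423, 1242 and 785 CPM in +/+ axons. Without hnRNP R the values were 14.6, 21.5, 43.4 and 30.1 CPM and 435, 319.5, 1100.5 and 797 CPM, in the same order. It was 27.9-fold higher in +/+ axons (log2 fold change 4.80 ± 0.55, adjusted p = 2.8e-05) and 24.2-fold higher in *Hnrnpr*-/- axons (log2 fold change 4.60 ± 0.55, adjusted p = 4e-05). Without both axonal libraries numbered 3, which held its highest axonal values, the log2 fold changes were 4.37 and 4.26. Its neighbour *Myl12b* (chr17:71280958-71297511, minus strand) encodes a nearly identical light chain and rose by less, from 193 to 242 CPM to 229 to 308 CPM in +/+ motoneurons (log2 fold change 0.37 ± 0.15, adjusted p = 0.044), a call that was lost with the replicate block within each genotype (adjusted p = 0.074).

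The coding sequences of *Myl12a* and *Myl12b* are alike in 498 of 516 bases (96.5%), and the first 120 coding bases, shown from the GRCm39 genome for 1 transcript of each gene to let the closeness of the pair be seen, differ in 5 bases, set in capitals. Both genes lie on the minus strand of chromosome 17, and introns interrupt neither stretch: *Myl12a* from 71303756 to 71303875 and *Myl12b* from 71284107 to 71284226.
Myl12a: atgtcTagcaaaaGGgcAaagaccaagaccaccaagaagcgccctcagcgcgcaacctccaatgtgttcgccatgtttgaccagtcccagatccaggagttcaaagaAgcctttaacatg
Myl12b: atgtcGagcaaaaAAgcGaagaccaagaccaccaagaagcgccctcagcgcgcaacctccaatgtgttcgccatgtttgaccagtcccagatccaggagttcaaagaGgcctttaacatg
In the whole transcripts, 12.7% of the 100-base windows of *Myl12a* and 30.1% of those of *Myl12b* also occur in the other gene or in *Gm49909*. Reads with several alignments were counted as fractions. *Myl12b* was at 193 to 242 CPM and *Myl12a* at 16.1 to 44.02 CPM in the +/+ somatodendritic libraries, so fractions of reads from the more abundant gene can weigh on the level of *Myl12a* there by more than these percentages, and on its fold change and its share of the pair. How much they did was not tested.

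*Myh9* encodes the heavy chain of myosin IIA, the form of most nonneuronal cells (chr15:77644785-77726375, minus strand). Libraries 1 to 4 of the +/+ somatodendritic compartment gave 21.8, 20.6, 32.8 and 18.6 CPM, and those of +/+ axons 71.5, 28.6, 128 and 218 CPM. For *Hnrnpr*-/- libraries, 18.6, 12.3, 24.8 and 28.7 CPM were found on the somatodendritic and 125, 53.01, 124 and 127 CPM on the axonal side. It was 4.76-fold higher in +/+ axons (log2 fold change 2.25 ± 0.49, adjusted p = 0.0015) and 5.07-fold higher in *Hnrnpr*-/- axons (log2 fold change 2.34 ± 0.49, adjusted p = 0.0013), although +/+ axonal library 2 fell within the somatodendritic range. *Myh10* encodes the heavy chain of myosin IIB, the main form of neurons (chr11:68581228-68707451, plus strand). The 4 +/+ somatodendritic libraries held 433, 449, 409 and 346 CPM of *Myh10*, and the 4 +/+ axonal libraries 170.1, 194, 317 and 198 CPM. The matching values for *Hnrnpr*-/- motoneurons were 565, 285, 338 and 276 CPM and 182, 231, 357 and 114 CPM. The +/+ axonal values were below all +/+ somatodendritic ones (1.86-fold lower, log2 fold change -0.90 ± 0.32, adjusted p = 0.024), while the *Hnrnpr*-/- compartments overlapped (log2 fold change -0.73 ± 0.31, adjusted p = 0.062). With the replicate number as a block, or with the number as a block within each genotype, the log2 fold change of *Myh10* in *Hnrnpr*-/- motoneurons was -0.79 (adjusted p = 0.028) or -0.78 (adjusted p = 0.045). In +/+ motoneurons its call was lost without somatodendritic library 1, 2 or 3 or axonal library 1, 2 or 4, with edgeR adjusted p values of 0.052 to 0.07. Without both axonal libraries numbered 3, which held its highest axonal values, the log2 fold changes of *Myh10* were -1.14 in +/+ (adjusted p = 0.0037) and -1.08 in *Hnrnpr*-/- motoneurons (adjusted p = 0.0054), and the latter was also called without axonal library 3 of that genotype alone (-1.02, adjusted p = 0.014) and without its somatodendritic library 4 (-0.85, adjusted p = 0.048). *Myl6*, for the essential light chain, had log2 fold changes of 2.24 ± 0.32 and 2.44 ± 0.32, and 48.1% of its windows also occur in at least 6 other genes, among them *Gm10080*. Per kilobase, the heavy chains together were at 47.1 ± 5.06 CPM in the somatodendritic compartment of +/+ motoneurons and at 38.6 ± 14.3 in their axons, values that overlap, whereas the regulatory light chains together were at 234 ± 25.95 and 658 ± 248 (SD, n = 4).

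Among the 6 genes for formins and Ena/VASP proteins, which bind barbed ends and keep them growing, *Vasp* and *Diaph2* were higher and *Evl* was lower in axons of both genotypes. *Evl* encodes the Ena/VASP protein EVL (chr12:108520942-108654775, plus strand). *Evl* was at 142, 141, 133 and 142 CPM in the somatodendritic libraries of +/+ motoneurons and at 43.9, 52.6, 31.2 and 51.3 CPM in their axons. They were, for *Hnrnpr*-/- motoneurons, 129, 147, 136 and 125 CPM in the somatodendritic compartment and 77.9, 52.4, 25.8 and 43.4 CPM in axons. All axonal values were below all somatodendritic ones, 3.12-fold lower in +/+ (log2 fold change -1.64 ± 0.26, adjusted p = 0.00016) and 2.69-fold lower in *Hnrnpr*-/- motoneurons (log2 fold change -1.43 ± 0.26, adjusted p = 0.00046). *Vasp* went up, with log2 fold changes of 1.40 ± 0.35 and 1.37 ± 0.35, and *Enah*, for the related protein MENA, was called in neither genotype (0.14 ± 0.21 and -0.46 ± 0.21). Together the 3 were at 59.4 ± 1.59 CPM per kb in +/+ somatodendritic libraries and at 34.4 ± 5.21 in +/+ axons (SD, n = 4), with *Evl* at 50.3 ± 1.52 and 16.1 ± 3.53 and *Vasp* at 5.27 ± 0.498 and 13.9 ± 7.10. *Diaph2*, for a diaphanous formin, was at 4.19 to 6.13 CPM and 10.8 to 28.4 CPM in the +/+ compartments (log2 fold change 1.82 ± 0.29). *Diaph1*, for a formin of the same family, was at most 16.6 CPM in any library and passed the threshold in *Hnrnpr*-/- motoneurons only (0.91 ± 0.32, against 0.55 ± 0.31 in +/+). *Fmn2*, a formin of the nervous system, was not called (0.14 ± 0.27 and -0.24 ± 0.27).

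Capping protein is a dimer of an alpha and a beta subunit. *Capzb*, for the only beta subunit, was at 199 to 249.7 CPM in +/+ somatodendritic libraries and at 311 to 679 CPM in axons, higher in both genotypes (log2 fold changes 1.25 ± 0.22 and 1.13 ± 0.22). The alpha subunits changed less, with 0.33 ± 0.13 for *Capza2*, called in +/+ motoneurons (adjusted p = 0.038, but 0.058 with the replicate block within each genotype), and 0.13 ± 0.18 for *Capza1*, which was not called and shares 52.4% of its windows with *Gm5920* or *Gm71057*. The alpha subunits together were at 166 ± 20.01 and 201 ± 7.99 CPM per kb in the 2 +/+ compartments, and *Capzb* alone was at 106 ± 10.9 and 253 ± 81.7 (SD, n = 4).

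Of the 5 genes for membrane linkers, the ERM genes *Ezr* and *Msn* were higher and *Ablim3* was lower in axons of both genotypes. *Msn* encodes moesin (chrX:95139651-95212159, plus strand), an ERM protein of blood, endothelial and mesenchymal cells and of growth cones. Its level was 59.8, 39.5, 88.7 and 43.6 CPM in +/+ somatodendritic libraries and 424, 220.4, 689 and 1042 CPM in +/+ axons. Without hnRNP R the values were 55.6, 45.7, 82.3 and 104 CPM and 556, 299, 637 and 663 CPM, in the same order. It was 10.3-fold higher in +/+ (log2 fold change 3.36 ± 0.46, adjusted p = 6.9e-05) and 7.50-fold higher in *Hnrnpr*-/- motoneurons (log2 fold change 2.91 ± 0.45, adjusted p = 0.00018). *Ezr* encodes ezrin (chr17:7005530-7050179, minus strand), an ERM protein found in epithelia and in fine processes of astrocytes. Libraries 1 to 4 of the +/+ somatodendritic compartment gave 115, 97.9, 146 and 70.8 CPM, and those of +/+ axons 577, 720.5, 756 and 391 CPM. For *Hnrnpr*-/- libraries, 98.1, 112, 145 and 159 CPM were found on the somatodendritic and 294, 784, 1162 and 403 CPM on the axonal side. It was 5.69-fold higher (log2 fold change 2.51 ± 0.39, adjusted p = 0.00014) and 5.14-fold higher (log2 fold change 2.36 ± 0.38, adjusted p = 0.00025) in +/+ and *Hnrnpr*-/- axons. *Rdx*, for radixin, differed by 0.53 ± 0.17 in +/+ motoneurons, where it was called, and by 0.14 ± 0.17 in *Hnrnpr*-/- motoneurons, where it was not. The 3 ERM transcripts together went from 69.7 ± 18.2 to 382 ± 64.3 CPM per kb in +/+ motoneurons (SD, n = 4). All 6 astrocyte or radial glia markers were detected, and 4 of the 6 were higher in +/+ axons and 2 of 6 in *Hnrnpr*-/- axons. The sum of these 6 markers over libraries 1 to 4 was 3341, 4703, 2325 and 1962 CPM in +/+ axons. In *Hnrnpr*-/- axons it was 1901, 3758, 2246 and 3001 CPM. *Ezr* was highest in library 3 of both genotypes, where this sum was not at its highest. The part that cells of this type had in the levels of *Ezr* was not tested.

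*Ablim3* encodes an actin-binding LIM protein that the study also counts among cytoskeletal genes, and it had the largest decrease of the 40. The 4 +/+ somatodendritic libraries held 400.0, 432, 384 and 324 CPM of *Ablim3*, and the 4 +/+ axonal libraries 66.3, 48.8, 12.3 and 69.6 CPM. The matching values for *Hnrnpr*-/- motoneurons were 481, 372, 336 and 321 CPM and 169, 76.3, 5.10 and 28.7 CPM. It was 7.81-fold lower in +/+ axons (log2 fold change -2.97 ± 0.74, adjusted p = 0.0034) and 5.42-fold lower in *Hnrnpr*-/- axons (log2 fold change -2.44 ± 0.72, adjusted p = 0.01), and no axonal value reached a somatodendritic one. Axonal library 3 was the lowest of its group in both genotypes. Without both libraries numbered 3, the log2 fold changes were -2.66 and -2.07. In *Hnrnpr*-/- motoneurons the log2 fold change was -3.37 without axonal library 1, the highest of its group, and -3.21 with the replicate block within each genotype, with adjusted p values of 0.0014 and 0.0055 in edgeR. *Ablim1*, for a relative of the same structure, was not called (-0.23 ± 0.29 and 0.15 ± 0.29).

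The order of the 40 transcripts by CPM per kilobase of exon also differed between the compartments. The length is that of all annotated exons of a gene together and can differ from that of the transcripts present, so the order between genes and the shares of paired genes hold for this length only, while a gene's own change between compartments does not depend on it. In the +/+ somatodendritic compartment the first 3 were *Pfn2* at 376 ± 53.04, *Tmsb4x* at 374 ± 75.1 and *Cfl1* at 373 ± 55.96 CPM per kb (SD, n = 4), with overlapping ranges, followed by *Myl12b* at 221 ± 24.7. In +/+ axons *Tmsb4x* led at 1256 ± 355 CPM per kb, ahead of *Cfl1* at 668 ± 193, *Myl6* at 510.4 ± 247, *Tpm4* at 391 ± 184 and *Myl12a* at 374 ± 207, and each of these overlapped its neighbour in the order. *Myl12a* moved from rank 31 to rank 5 of 40, *Arpc1b* from 33 to 16, *Tpm2* from 37 to 25, *Pfn2* from 1 to 7 and *Ablim3* from 12 to 36. The formins *Fmn2*, *Diaph1* and *Diaph2* were at the end in each +/+ compartment, at 0.953 ± 0.0696, 1.17 ± 0.186 and 0.493 ± 0.0903 CPM per kb in the somatodendritic and 1.05 ± 0.556, 1.72 ± 0.802 and 1.74 ± 0.777 in the axonal libraries.

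Many of the 40 come as pairs of related genes, and 11 such pairs were compared as the share of the first gene in the summed level per kilobase. *Actr3* and *Actr2* encode 2 different subunits of the Arp2/3 complex, which are not alternatives to each other. The pairs *Msn* and *Rdx*, *Vasp* and *Evl*, and *Cfl1* and *Cfl2* leave out the related genes *Ezr*, *Enah* and *Dstn*. The 11 shares do not depend on the scaling between libraries, and they were not tested. The coding sequences of the pairs were 54.3 to 96.5% identical, and apart from *Myl12a* and *Myl12b* only *Myh9* and *Myh10* had 100-base windows in common (0.313% and 0.299% of their windows). *Pfn1* made up 10.1% ± 2.02 of profilin transcripts in the +/+ somatodendritic compartment and 50.01% ± 22.1 in axons (SD, n = 4), with ranges of 8.06 to 12.4% and 22.1 to 75.9%. *Arpc1b* made up 6.32% ± 2.57 and 58.1% ± 18.3 of ARPC1 transcripts, and *Myl12a* 5.69% ± 2.69 and 54.05% ± 9.55 of its pair. For *Myh9* against *Myh10* the shares were 6.70% ± 1.66 and 35.4% ± 17.4, and for *Vasp* against *Evl* 9.48% ± 0.833 and 44.6% ± 16.8. In each of these 5 pairs the lowest axonal share was above the highest somatodendritic share, in both genotypes.

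The pairs *Msn* and *Rdx* (42.6% ± 7.69 and 80.2% ± 13.8 for *Msn*), *Actr3* and *Actr2* (66.4% ± 3.24 and 91.5% ± 2.68 for *Actr3*) and *Tmsb4x* and *Tmsb10* (89.8% ± 1.33 and 95.4% ± 1.06 for *Tmsb4x*) also had axonal shares above all somatodendritic ones in both genotypes. The shares overlapped between compartments for *Arpc5* and *Arpc5l* (66.1% ± 3.51 and 68.2% ± 8.26 for *Arpc5*) and for *Capza1* and *Capza2* (24.98% ± 0.553 and 22.3% ± 5.97 for *Capza1*), and for *Cfl1* and *Cfl2* they overlapped in +/+ motoneurons only (87.2% ± 3.62 and 90.7% ± 3.58 for *Cfl1*). In *Hnrnpr*-/- axons the shares of *Pfn1*, *Arpc1b*, *Myl12a*, *Myh9* and *Vasp* were 52.6% ± 18.6, 57.8% ± 18.1, 52.7% ± 12.6, 39.3% ± 16.03 and 43.4% ± 20.8, and the 11 shares overlapped between the genotypes in both compartments. The total of a family could change little while its composition shifted: profilin transcripts together were at 418 ± 51.4 CPM per kb in the somatodendritic compartment and at 545 ± 165 in axons of +/+ motoneurons, and at 424 ± 44.4 and 451 ± 58.9 in *Hnrnpr*-/- motoneurons.

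**Figure D3:**
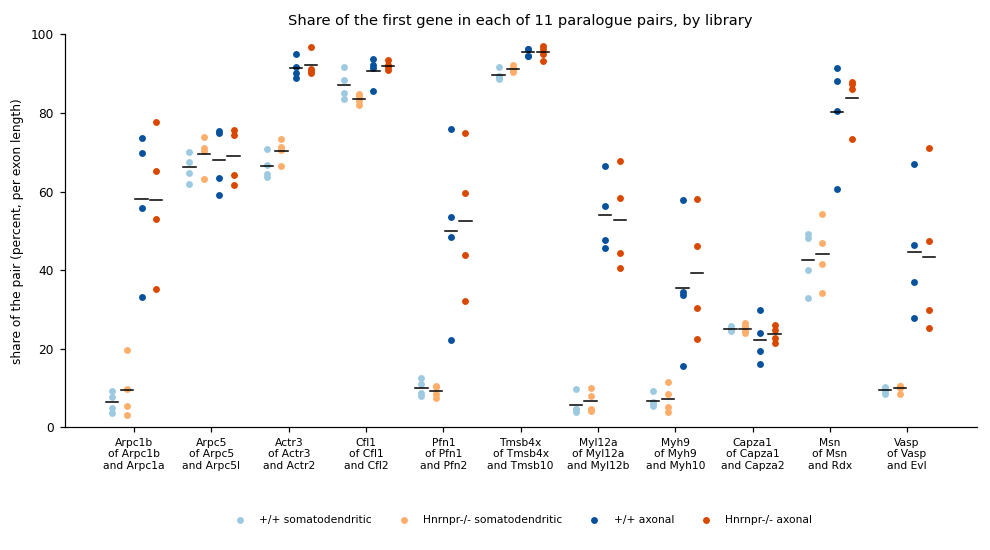
Share in percent of the first gene in the summed level per kilobase of each of 11 pairs (vertical axis), 1 point per library and 4 points per group, with lines at the means. The axonal points of *Arpc1b*, *Pfn1*, *Myl12a*, *Myh9* and *Vasp* lie above all somatodendritic points, and the points of *Arpc5* and *Capza1* overlap.

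The other genes of the same pathways, 77 upstream regulators, kinases, nucleators, bundlers and further myosin genes, moved in both directions: 33 were higher and 30 lower in +/+ axons, and 28 were higher and 29 lower in *Hnrnpr*-/- axons, with medians of 0.24 and 0.09. In +/+ axons these were 42.9% and 39% of the 77, against 30.1% and 27.4% of all genes tested. In *Hnrnpr*-/- axons they were 36.4% and 37.7%, against 27.5% and 26.8% of all genes. The 14 WAVE and WASP regulators, which switch on the Arp2/3 complex, had 6 higher and 5 lower in +/+ axons. Of 20 small GTPases, kinases and phosphatases that signal to actin, 7 were higher and 11 lower, of 21 further turnover and nucleation factors 10 were higher and 7 lower, of 19 bundlers and crosslinkers 9 were higher and 7 lower, and of the 3 other myosin II genes only *Myl9* was called. *Myl9* encodes the regulatory light chain of smooth muscle. It was at 6.40, 2.43, 35.7 and 8.45 CPM in +/+ somatodendritic libraries and at 259.7, 228, 819 and 498 CPM in +/+ axons, highest in library 3 like *Tpm1* and *Tpm2* (log2 fold changes 5.09 ± 0.87 in +/+ and 4.96 ± 0.86 in *Hnrnpr*-/- motoneurons). In +/+ motoneurons the largest increase in this wider list was that of the formin gene *Inf2* (0 to 0.414 CPM in somatodendritic and 5.41 to 13.2 CPM in axonal +/+ libraries, log2 fold change 5.52 ± 0.83), and that of the formin gene *Fmn1* was smaller (4.39 ± 0.66 in +/+ and 2.11 ± 0.60 in *Hnrnpr*-/- motoneurons). The genotypes differed by -2.29 ± 0.84 in this enrichment of *Fmn1* (unadjusted p = 0.016 in edgeR), which did not pass the adjusted threshold. It was 1 of the 77 with an unadjusted p under 0.05 there, against 1.33% of all genes. *Fmn1* was at 4.36, 4.89, 8.84 and 27.1 CPM in +/+ axons, and without library 4 its +/+ log2 fold change was 3.54 (adjusted p = 0.00016). Without +/+ somatodendritic library 3 those of *Myl9* and *Inf2* were 6.33 and 6.14. The largest decreases in +/+ motoneurons were those of *Limk1*, the kinase that inactivates cofilin (-2.67 ± 0.36 and -2.30 ± 0.36), of the nucleator gene *Cobl* (-2.55 ± 0.41 and -2.05 ± 0.40) and of *Cyfip2*, a subunit of the WAVE complex typical of neurons (-2.50 ± 0.37 and -2.09 ± 0.36). *Cyfip2* was at 705 to 909 CPM in the +/+ somatodendritic compartment and at 84.2 to 187 CPM in axons.

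Within the axonal libraries the 40 transcripts had their extremes in particular libraries. Library 3 held the highest value for 21 of the 40 in +/+ axons and for 22 of the 40 in *Hnrnpr*-/- axons, where 27.3% and 30% of all genes tested were highest in that library. Library 2 held the lowest value for 17 and 23 of the 40, against 33.4% and 19.6% of all genes. The sum of the 6 pericyte or smooth muscle markers over libraries 1 to 4 was 2395, 1255, 11264 and 4870 CPM in +/+ axons and 2484, 2126, 10037 and 3483 CPM in *Hnrnpr*-/- axons, with *Acta2* at 9784 and 8734 CPM in the libraries numbered 3. *Tagln* and *Cnn1*, of the smooth muscle contractile apparatus, were also highest in library 3 of both genotypes. *Myh11* was highest in library 4, and the pericyte markers *Pdgfrb* (195, 48.4, 74.8 and 458 CPM in +/+ axons, 287, 39.3, 93.3 and 278 CPM in *Hnrnpr*-/- axons) and *Rgs5* (13.6, 1.46, 1.98 and 9.36 CPM, and 38.5, 2.05, 0.960 and 10.9 CPM) were highest in library 1 or 4, so that the sum follows *Acta2* and not every marker of the list. *Tpm1*, *Myl12a* and *Myl6* were also highest in library 3 of both genotypes, and *Ablim3* and *Actr2* lowest. The sum of 6 fibroblast or meningeal markers over libraries 1 to 4 was 758, 117, 439 and 1559 CPM in +/+ axons and 523, 421, 588 and 1563 CPM in *Hnrnpr*-/- axons, lowest in library 2 and highest in library 4 of both genotypes. *Arpc1b*, *Gsn*, *Msn* and *Myh9* were also lowest in library 2 and highest in library 4 of both genotypes. The fibroblast list had 0 of the 6 genes past the adjusted threshold in edgeR in either genotype, and 1 in +/+ and 0 in *Hnrnpr*-/- motoneurons with an unadjusted p below 0.05. Of the 5 or 6 tested markers in each other list, 1 endothelial, 1 microglial and 1 oligodendroglia or Schwann cell marker were higher in axons and 2 endothelial and 2 motoneuron markers were lower, in both genotypes. The endothelial markers *Cdh5* and *Cldn5* had no count in any +/+ axonal library. Without both axonal libraries numbered 3, an alternative chosen after seeing the data, 24 of the 40 were higher and 5 lower in +/+ axons and 24 higher and 4 lower in *Hnrnpr*-/- axons. The part of these cells in the counts was not tested.

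**Figure D4:**
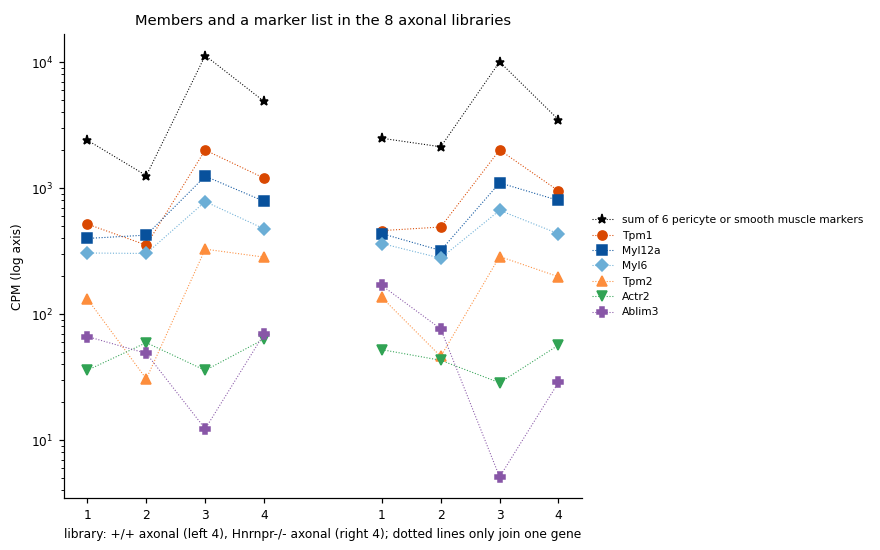
CPM on a log axis in the 8 axonal libraries (horizontal axis, 4 per genotype) for 6 of the transcripts and for the sum of 6 pericyte or smooth muscle markers. The sum and *Tpm1*, *Myl12a*, *Myl6* and *Tpm2* peak in library 3 of each genotype, where *Ablim3* is at 12.3 and 5.10 CPM, its lowest values. *Acta2* alone gives 9784 of 11264 CPM and 8734 of 10037 CPM of the sum in these libraries, and *Myh11*, *Pdgfrb* and *Rgs5* do not peak there.

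Loss of hnRNP R was compared with +/+ in each compartment to ask whether transcripts of this machinery depend on it. None of the 40 passed the adjusted threshold in either compartment: in edgeR the smallest adjusted p among them was 1 in both. In the somatodendritic compartment 0.00501% of all genes tested passed it, and at an unadjusted p under 0.05 there were 0 of the 40 and 0.601% of all genes. In axons 0.01% of all genes passed it, and at the unadjusted threshold there was 1 of the 40, *Enah*, and 3.88% of all genes. DESeq2 also called 0 of the 40 in each compartment and gave the same counts of 0 and 1 at the unadjusted threshold. The log2 differences ranged from -0.50 to 0.63 in the somatodendritic compartment and from -0.62 to 0.50 in axons. They were within 0.25 of 0 for 31 and 32 of the 40. As 0.25 is less than the median standard error of 0.28 in each compartment, this fit could not detect such differences for most of the 40. The fit shares 1 spread per gene among all 16 libraries, so the somatodendritic standard errors also carry the spread of the axonal libraries. When edgeR was given only the 2 somatodendritic groups, 2 of the 40 (*Cfl1* and *Diaph1*) and 471 of all genes had an unadjusted p under 0.05. None of the 40 passed the adjusted threshold there. The axonal enrichment itself differed between genotypes for 0 of the 40 at the adjusted and 0 of the 40 at the unadjusted threshold, where 0% and 1.33% of all genes were past them, and in DESeq2 for 0 of the 40 at both. Its differences between genotypes ran from -0.60 for *Enah* to 0.53 for *Ablim3*, with a median standard error of 0.39.

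*Enah* encodes MENA, which keeps filaments in growth cones elongating (chr1:181723949-181848132, minus strand). In axons it was at 37.6, 89.5, 68.9 and 48.6 CPM in the +/+ libraries and at 41.5, 42.8, 38.6 and 36.4 CPM in the *Hnrnpr*-/- libraries, and in the somatodendritic compartment at 45.9, 52.4, 61.4 and 61.7 CPM and 57.02, 59.2, 53.5 and 49.5 CPM. The 4 *Hnrnpr*-/- axonal values lay close together near the lower end of the wider +/+ range, and the groups overlap. The log2 difference in axons was -0.62 (SE 0.21, unadjusted p = 0.011 and adjusted p = 1 in edgeR), and in the somatodendritic compartment -0.01 ± 0.21. Without +/+ axonal library 2, its highest, the axonal difference was -0.38 with an unadjusted p of 0.058 in edgeR. *Ablim3* differed by 0.50 ± 0.69 in axons and by -0.03 ± 0.68 in the somatodendritic compartment, and the 4 *Hnrnpr*-/- axonal values span both sides of the +/+ range. *Diaph2*, at 9.07 to 15.3 CPM in *Hnrnpr*-/- and 10.8 to 28.4 CPM in +/+ axons, had a log2 difference of -0.56 ± 0.28 with an unadjusted p of 0.065. *Diaph1*, named here after its values were seen, was the 1 member whose genotypes did not overlap in the somatodendritic compartment, at 7.36, 6.17, 8.28 and 5.91 CPM in +/+ and 4.73, 5.11, 5.36 and 4.33 CPM in *Hnrnpr*-/- libraries. Of all genes tested, 1.58% did not overlap there and 0.606% in axons, where none of the 40 did, and the test gave -0.50 ± 0.31 with an unadjusted p of 0.13.

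**Figure D5:**
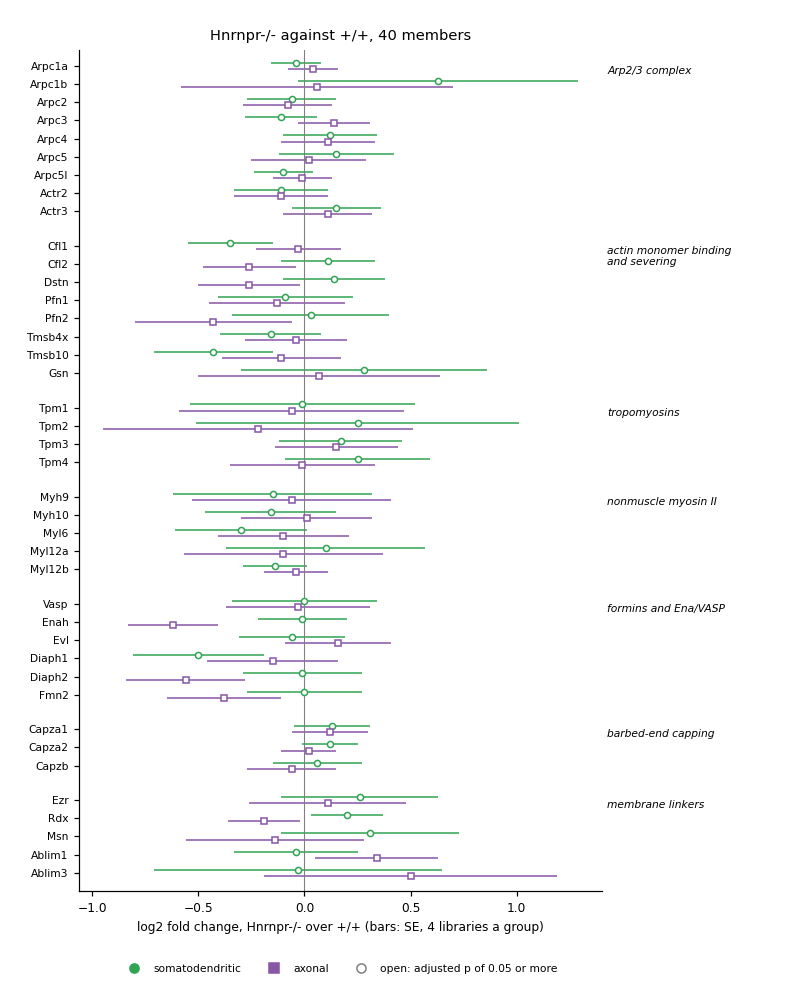
Log2 fold change of *Hnrnpr*-/- over +/+ (horizontal axis) for the 40 transcripts in the somatodendritic (circles) and the axonal compartment (squares), with standard errors of the fit to all 16 libraries, 4 a group. All symbols are open, since none passed the adjusted threshold, and *Enah* in axons at -0.62 has the lowest axonal value.

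Many genes of this machinery are known targets of serum response factor, which binds the CArG box, and of TEAD factors, which bind the MCAT box. Promoters from RefSeq (GRCm38.p6) were at hand for 37 of the 40 genes, and the 250 bases before each start site were searched on both strands. A CArG box was found in 2 of the 37 (5.41%), *Arpc4* and *Myl6*, and in 1.62% of 27025 promoters of the same length. The MCAT box CATTCC was found in 6 of the 37 (16.2%), *Arpc2*, *Pfn1*, *Tpm1*, *Myh10*, *Evl* and *Ablim1*, which include genes higher, lower and not called in +/+ axons, and in 14.4% of all. TATAAA was found in 2 of the 37 (5.41%), *Myh9* and *Ablim1*, and in 14.3% of all. The 2 stretches with a CArG box are shown with the box in capitals, *Arpc4* on the plus strand at chr6:113377863-113377892 and *Myl6* on the minus strand at chr10:128493030-128493079.
Arpc4: CCTAATTTGGtgcccaacctgaggtcgggc
Myl6: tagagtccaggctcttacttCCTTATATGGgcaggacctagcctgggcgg
The box ends 240 bases before the start site in *Arpc4* and 40 bases before it in *Myl6*. Both transcripts were higher in axons of both genotypes, at 0.85 ± 0.22 and 2.24 ± 0.32 in +/+ motoneurons, as were many without the box in this window, such as *Tpm2* and *Myl12a*.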

How the data were processed

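The data were RNA-seq counts per gene from 16 libraries in 4 groups of 4, made with SMART-Seq v4 and Nextera XT. The authors trimmed single-end reads with Cutadapt, aligned them to GRCm39 with STAR 2.7.2b and deposited expected counts (estimated counts per RefSeq gene, not normalised) from featureCounts 1.6.4, with reads of several alignments or features counted as fractions. Reads were counted as reverse-stranded although the kit does not mark strand, so reads of overlapping antisense genes cannot be told apart. The authors also used DESeq2 1.24.0.

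Here the counts were rounded, genes with low counts were removed by edgeR's filterByExpr (19964 of 46320 genes remained), and all 16 libraries were fitted together with edgeR 4.0.16 in R 4.3.3 (TMM factors, quasi-likelihood F-test on 4 group means, Benjamini-Hochberg adjustment over all genes tested, threshold 0.05). The comparisons were axonal against somatodendritic in each genotype, genotype in each compartment, and the difference of the axonal enrichment between genotypes. DESeq2 1.42.0, other scalings, no filter, fewer libraries and a replicate block were alternatives. The fit was also run on simulated counts with known changes, and the outcome of that run is not reported here. CPM values use the rounded counts, and levels per kilobase divide them by the combined exon length in the deposited table. No 2 libraries held identical values. The study describes the replicates as biological replicates and does not say what a replicate number stands for. Its reporting summary states, for all experiments together, that control and treatment conditions shared a batch of cells. Gene coordinates are those of the deposited table (GRCm39), the *Myl12a* and *Myl12b* sequences and the shared windows come from GRCm39 with GENCODE transcripts, and promoters from RefSeq on GRCm38.p6.

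Deviations from the group means of same-numbered libraries correlated at 0.105 to 0.241 between +/+ compartments and at 0.175 to 0.508 between *Hnrnpr*-/- compartments, so the numbers were taken to pair compartments within a genotype. The main fit leaves this pairing out, and the replicate block within each genotype takes it in. Across genotypes the correlations were -0.0458 to 0.359 between somatodendritic and 0.00946 to 0.677 between axonal libraries, highest for number 3 in both and not above 0.1 for every number, so the numbers were not taken to pair genotypes.

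The members and lists were chosen with earlier results of these data known. Members were described library by library where they were among the 10 largest increases or decreases past the threshold in +/+ motoneurons or had an unadjusted p under 0.05 between genotypes, plus *Ablim3*. Of the other pathway genes, the 3 largest increases and 3 largest decreases were named.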

Additional observations from a re-analysis of the deposited data

Results flagged for a closer look

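Among the 15 members described library by library, 60 groups of 4 libraries were checked for a library that stood far from the other 3, and 3 were found, a number that chance gives at about 1 group in 20. *Pfn1* was at 52.8 CPM in *Hnrnpr*-/- somatodendritic library 1, where the nearest of the other libraries was at 75.9 CPM. *Myh9* was at 53.0 CPM in *Hnrnpr*-/- axonal library 2, where the nearest was at 124 CPM. *Evl* was at 133 CPM in +/+ somatodendritic library 3, where the nearest was at 141 CPM. The distance to the nearest library took up 0.852, 0.957 and 0.837 of the range of the group, which is above Dixon's critical value for 4 libraries, and without each of these libraries the compartment difference of its gene kept its direction.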

How the results depend on the processing

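Among the 14 members whose compartment differences and the 1 whose genotype difference were recomputed under the alternatives, none changed direction, and the counts of members called higher in axons stayed within 1.5 times of 27 and 26. In *Hnrnpr*-/- motoneurons 3 members were called lower, but 5 were with only the groups compared, with the replicate number as a replicate block, and with a replicate block within each genotype, and 3 to 5 when each library was left out in turn. The 2 gained under both blocks were *Myh10* (log2 fold change -0.79 and -0.78, adjusted p = 0.028 and 0.045 in edgeR) and *Pfn2* (-0.89 and -0.95, adjusted p = 0.041 and 0.035). *Arpc5* was gained as higher under both, and *Tmsb10* and, in +/+ motoneurons, *Myl12b* and *Capza2* were lost under the block within each genotype. The blocks changed no other compartment call of the 40. Between genotypes in the somatodendritic compartment, 0 members had an unadjusted p under 0.05, but 2 (*Cfl1* and *Diaph1*) with only the groups compared and 2 (the same genes) without both axonal libraries numbered 3. In axons 1 member did, with 0 to 2 when each library was left out in turn and 2 (*Enah* and *Diaph2*) without both libraries numbered 3. For the difference of the axonal enrichment, 0 members did, and 0 to 1 when each library was left out. The cause of these changes was not tested. The log2 ratio of *Arpc5* to *Arpc5l* moved to 0 without +/+ axonal library 3.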
